A study of Mus musculus with 12 samples.

Results

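The T cell receptor complex and its proximal signalling genes were followed across 4 groups of T cells. The 10 genes were taken by symbol from the deposited table and by Ensembl ID from the count files, where they are 10 of 38924 gene IDs. They are the CD3 chain genes Cd3d, Cd3e, Cd3g and Cd247, the coreceptor genes Cd4, Cd8a and Cd8b1, the kinase genes Lck and Zap70, and the adaptor gene Lat. All 10 passed the filter on low counts. The study asked how T cells respond to activation of STING, the adaptor through which cells answer DNA in the cytosol.

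Each of the 4 groups had 3 RNA sequencing libraries. All cells came from spleens of C57BL/6 mice aged 8 to 12 weeks and are labelled CD4+ T cells. Naive T cells were sorted, expanded for 2 days with anti-CD3 and anti-CD28 antibodies, which engage the receptor studied here, and rested for 1 day without antibodies. Wild-type (WT) cells and cells of STINGgt/gt mice (Goldenticket, a missense allele without functional STING, labelled STING KO) then received either the solvent DMSO or 10-carboxymethyl-9-acridanone (CMA), a cell-permeable STING agonist, for 16 h. The paper's legend to its RNA sequencing heat map gives n = 3 biological replicates. No label ties a library to 1 animal or culture, so p-values measure the spread between these libraries only.

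The T cell receptor recognises peptide on MHC molecules but has no signalling domain of its own. Signals pass through the CD3 chains, whose cytoplasmic tails carry immunoreceptor tyrosine-based activation motifs (ITAMs), each a pair of tyrosines within a short conserved motif. Lck, which is carried by the coreceptors CD4 and CD8, phosphorylates these tyrosines, and Zap70 docks on them and is activated. Zap70 then phosphorylates Lat, a membrane adaptor on which the enzymes of calcium and Ras signalling assemble.

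In WT T cells, CMA lowered 7 of the 10 transcripts and raised 2, Cd247 and Cd4. Lat fell to 0.46 times, Cd8a to 0.56 times and Cd3e to 0.63 times the DMSO level, whereas Lck, Zap70 and Cd3d lost 11.1% to 14% of theirs (edgeR, adjusted p between 8.41e-11 and 0.00293). Over all 13811 genes tested in WT cells 70.4% were called, 33.0% higher and 37.4% lower, and the median absolute log2 difference was 0.39 against 0.30 for the 10 members. All 10 members had WT groups that did not overlap, as did 71.1% of all genes. In STINGgt/gt T cells, none of the 10 was called by edgeR, DESeq2 or limma and 0 had an unadjusted p under 0.05, where 1.32% of all genes were called by edgeR, 0.398% higher and 0.920% lower. The log2 differences of the members in STINGgt/gt cells lay between -0.05 and 0.09, and the groups of 2 members, Cd247 and Cd4, did not overlap, against 23.1% of all genes. In bulk RNA, fewer cells of a type and less RNA per cell cannot be told apart.

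Reads on genes numbered 27414450 to 43784910 per library. Reads outside genes made up 4.86% to 5.47% in WT DMSO and 6.79% to 7.16% in WT CMA libraries, and reads without a unique place 29.6% to 30.3% and 27.8% to 27.9%, so both shares moved with CMA in WT without overlap. In STINGgt/gt libraries these shares were 5.98% to 6.54% and 28.1% to 29% with DMSO, and 6.02% to 6.33% and 28.1% to 28.3% with CMA, with overlap. Their part in the results on the members was not tested. Tmem173, which encodes STING, had 183 to 190 CPM (read counts scaled to the size of each library by the TMM method) in WT DMSO libraries, 296 to 316 with CMA, and 168 to 184 in the 6 STINGgt/gt libraries. A missense allele need not alter transcript levels, so these values do not check the genotype labels. The T cell marker list (Cd2, Cd5, Trac, Trbc1, Trbc2 and Bcl11b) summed to 1636 to 1807 CPM in WT DMSO, 1515 to 1581 in WT CMA, 1575 to 1616 in STINGgt/gt DMSO and 1547 to 1597 in STINGgt/gt CMA libraries. The WT groups of this sum did not overlap, and 2 of its 6 genes were called lower with CMA in WT, Cd2 (360 to 405 CPM with DMSO and 344 to 360 with CMA) and Bcl11b (138 to 155 and 96.2 to 99.5 CPM). Markers of other cells were present too. The 6 B cell markers summed to 253 to 266 CPM in WT DMSO, 350 to 378 in WT CMA and 114 to 122 in STINGgt/gt libraries, with all 6 detected and 5 of them called higher with CMA in WT. The 7 CD8 and NK cell markers summed to 166 to 183 CPM in WT DMSO, 77.9 to 82.3 in WT CMA, 79.5 to 90.2 in STINGgt/gt DMSO and 86.4 to 91.9 in STINGgt/gt CMA libraries. Among these 7, Gzmk was at 0 or close to 0 in every library and 5 were called lower with CMA in WT. Of the 7 myeloid markers, Adgre1 and Csf1r were below 1 CPM in every library, and the list summed to 57.4 to 64.5 CPM in WT DMSO, 70.7 to 74.8 in WT CMA, and 38.9 to 44.2 in STINGgt/gt libraries. Of its 6 genes tested in WT, Cst3 was called higher with CMA (36.1 to 40.8 CPM with DMSO and 53.3 to 58.2 with CMA), and Lyz2, Itgam and Fcer1g were called lower, from means of 3.25, 3.31 and 4.23 CPM to 1.16, 1.02 and 2.54 CPM. The part of such cells in the results on the members was not tested.

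**Figure D1:**
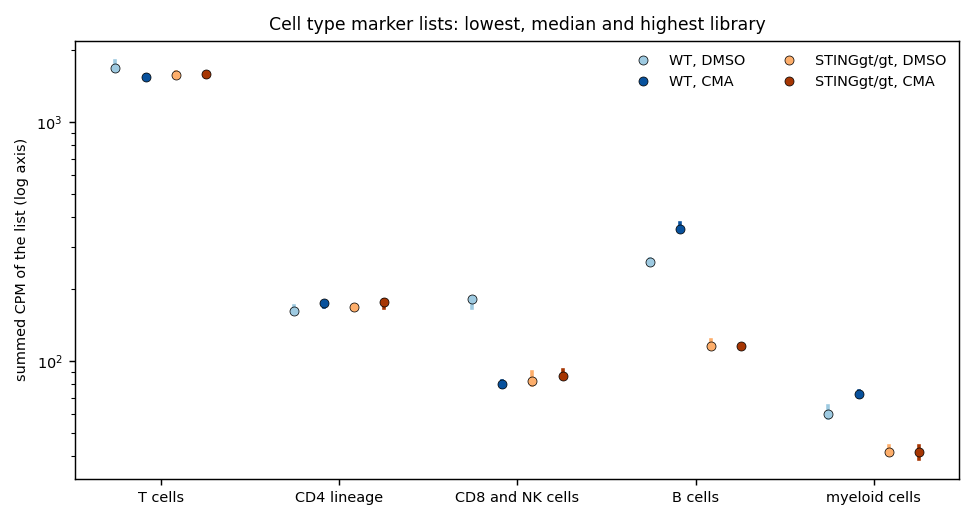
Summed CPM of 5 lists of cell type markers on a log axis, with the median library as a point and the lowest to highest of 3 libraries as a line, for the 4 groups. The T cell list was at 1636 to 1807 CPM in WT DMSO and 1515 to 1581 in WT CMA libraries, the B cell list was highest in WT CMA libraries, and the CD8 and NK cell list was highest in WT DMSO libraries.

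The ITAMs are shown first because the CD3 chain genes that carry them moved in opposite directions. A search of the translated principal transcripts (GENCODE M21, GRCm38) for 2 tyrosines, each followed at the third residue by leucine or isoleucine, with 6 to 9 residues between the 2 parts, found 1 motif in Cd3d, 1 in Cd3e, 1 in Cd3g and 3 in Cd247. No other member had a match. The coding DNA of each motif is given 5′ to 3′ on the sense strand with the 2 tyrosine codons in capitals, and each spans 2 exons.
Cd3d ITAM, chr9:44986095-44986311, plus strand: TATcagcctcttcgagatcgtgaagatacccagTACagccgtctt
Cd3e ITAM, chr9:44999549-45000440, minus strand: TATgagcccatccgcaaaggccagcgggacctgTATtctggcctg
Cd3g ITAM, chr9:44970735-44971268, minus strand: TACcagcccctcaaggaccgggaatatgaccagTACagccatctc
Cd247 ITAM 1, chr1:165856451-165857454, plus strand: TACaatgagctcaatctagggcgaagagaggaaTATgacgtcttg
Cd247 ITAM 2, chr1:165858473-165859260, plus strand: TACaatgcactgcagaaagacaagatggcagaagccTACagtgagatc
Cd247 ITAM 3, chr1:165859819-165861042, plus strand: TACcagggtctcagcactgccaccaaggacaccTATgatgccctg
The second motif of Cd247 is 48 bases long and the other 5 are 45 bases long. In WT cells the 3 genes with a single motif fell with CMA and the gene with 3 motifs rose.

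The genes for the CD3 gamma, delta and epsilon chains lie within 40 kb on chromosome 9 of GRCm38, Cd3g at chr9:44969572-44980431 on the minus strand, Cd3d at chr9:44981793-44987052 on the plus strand and Cd3e at chr9:44998743-45009590 on the minus strand. Despite this proximity the 3 genes differed in the size of their change. Cd3e, whose product pairs with both of the other chains, had 244, 267 and 246 CPM in the WT DMSO libraries and 153, 160 and 168 CPM with CMA. The WT groups did not overlap, and the log2 difference was -0.66 ± 0.0458 (SE, edgeR, adjusted p = 1.72e-09). In STINGgt/gt cells, Cd3e had 280, 274 and 282 CPM with DMSO and 269, 269 and 276 CPM with CMA, groups that overlapped. The CMA effect differed between genotypes by -0.62 on the log2 scale (edgeR, adjusted p = 4.81e-07).

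Cd3g, the gamma chain, had 170, 190 and 177 CPM in WT DMSO libraries and 131, 137 and 143 CPM in WT CMA libraries. Every CMA library lay below every DMSO library, at a log2 difference of -0.39 ± 0.0471 (edgeR, adjusted p = 1.58e-06). STINGgt/gt libraries held Cd3g at 188, 180 and 182 CPM with DMSO and at 186, 185 and 184 CPM with CMA, with overlap between the groups. For Cd3d, the delta chain, the WT values were 162, 179 and 163 CPM with DMSO and 147, 145 and 150 CPM with CMA. These groups were also apart, by less, at -0.19 ± 0.0496 (edgeR, adjusted p = 0.00293). The STINGgt/gt libraries had 180, 174 and 169 CPM of Cd3d with DMSO and 186, 180 and 169 CPM with CMA, which overlapped. Between genotypes the CMA effect differed by -0.40 for Cd3g (edgeR, adjusted p = 7.63e-05) and by -0.22 for Cd3d (edgeR, adjusted p = 0.0132, and 0.061 by limma on the authors' log2 table).

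Cd247 encodes the zeta chain, which is added last to the receptor. The gene lies at chr1:165788681-165877276 on the plus strand. Its WT libraries had 167, 182 and 186 CPM with DMSO and 237, 247 and 261 CPM with CMA. All 3 WT CMA libraries lay above all 3 WT DMSO libraries, with a log2 difference of 0.48 ± 0.0492 (edgeR, adjusted p = 2.30e-07). In STINGgt/gt libraries the level was 148, 143 and 151 CPM with DMSO and 160, 155 and 155 CPM with CMA. These groups did not overlap either, but the difference of 0.09 ± 0.0493 was not called (edgeR, adjusted p = 0.474). CMA raised it more in WT, by 0.39 (edgeR, adjusted p = 1.65e-04). Of the annotated exon bases of Cd247, 3007 (56.4%) overlap exons of Pou2f1, a transcription factor gene on the opposite strand. The library kit marks strand, but the strand setting used in counting is not given in the sources used here, so reads of the 2 genes may not have been told apart. Pou2f1 had 54.5, 39.4 and 65.3 CPM in WT DMSO and 70.2, 67.3 and 69.2 CPM in WT CMA libraries (log2 difference 0.37, edgeR, adjusted p = 0.0139). Its part in the Cd247 result was not tested.

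**Figure D2:**
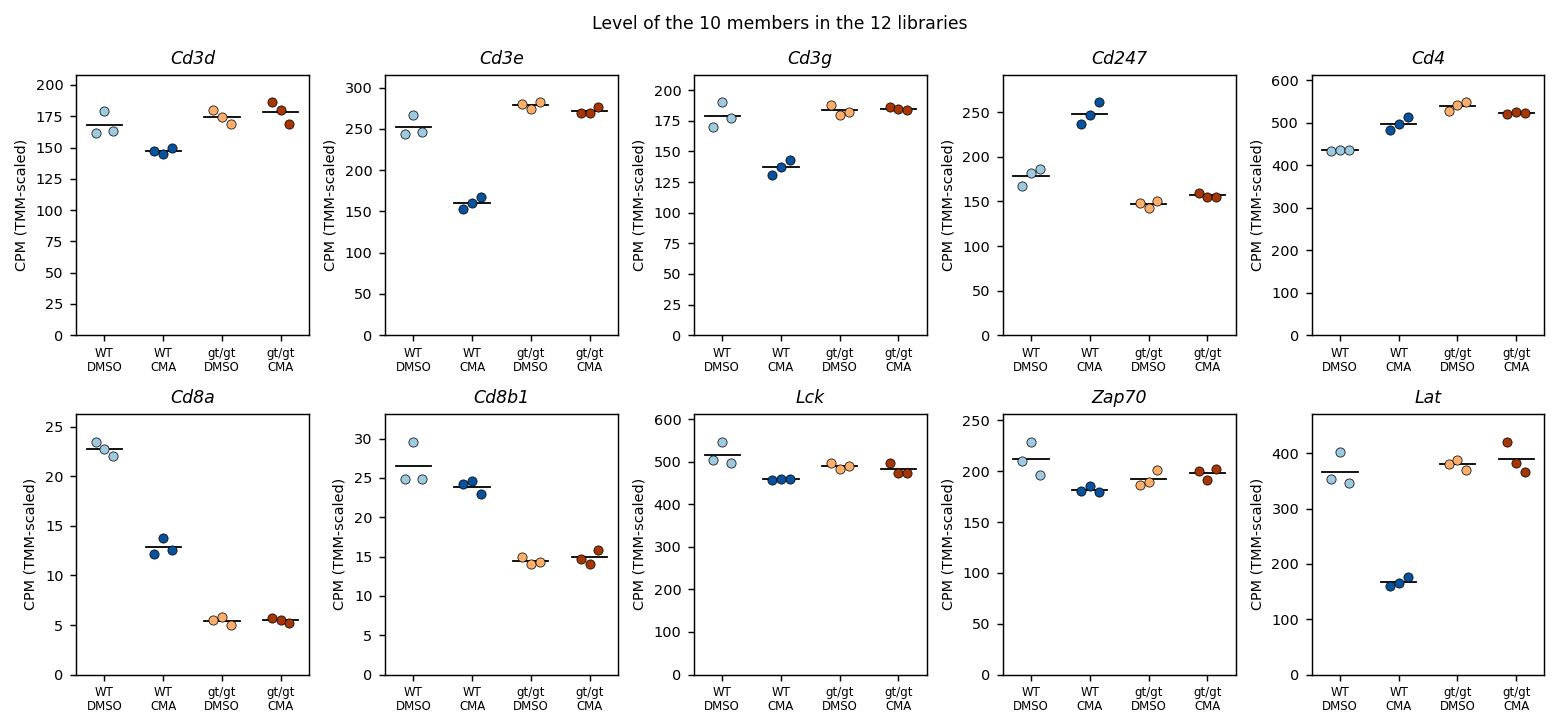
CPM of the 10 members in each of the 12 libraries (points) with the mean of 3 libraries (line), by genotype and treatment, and each axis starting at 0. Lat, Cd3e, Cd3g and Cd8a were lower in WT CMA than in WT DMSO libraries, Cd247 and Cd4 were higher, and the STINGgt/gt libraries of the 2 treatments lay close together.

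Counts of 2 genes in the same library need no scaling factor, so their ratio shows how the chains shifted against each other. Cd247 had 0.682 to 0.754 reads per read of Cd3e in WT DMSO libraries and 1.54 to 1.55 in WT CMA libraries, a log2 rise of 1.13 ± 0.0478. In STINGgt/gt cells this ratio was 0.521 to 0.537 with DMSO and 0.563 to 0.595 with CMA, a log2 difference of 0.13. These STINGgt/gt groups did not overlap either. The ratio of Cd3d to Cd3e went from 0.662 to 0.669 in WT DMSO libraries to 0.893 to 0.956 in WT CMA libraries. For Cd3g to Cd3e the corresponding ratios were 0.698 to 0.72 and 0.853 to 0.858. None of these 3 pairs of WT groups overlapped, so the CD3 transcripts did not change in step. With 3 against 3 libraries an exact two-sided permutation test cannot give less than p = 0.1. Each of these 3 WT ratios had this value, and so did Cd247 to Cd3e in STINGgt/gt cells. After adjustment over the 28 ratio comparisons made, the value was 0.14.

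**Figure D3:**
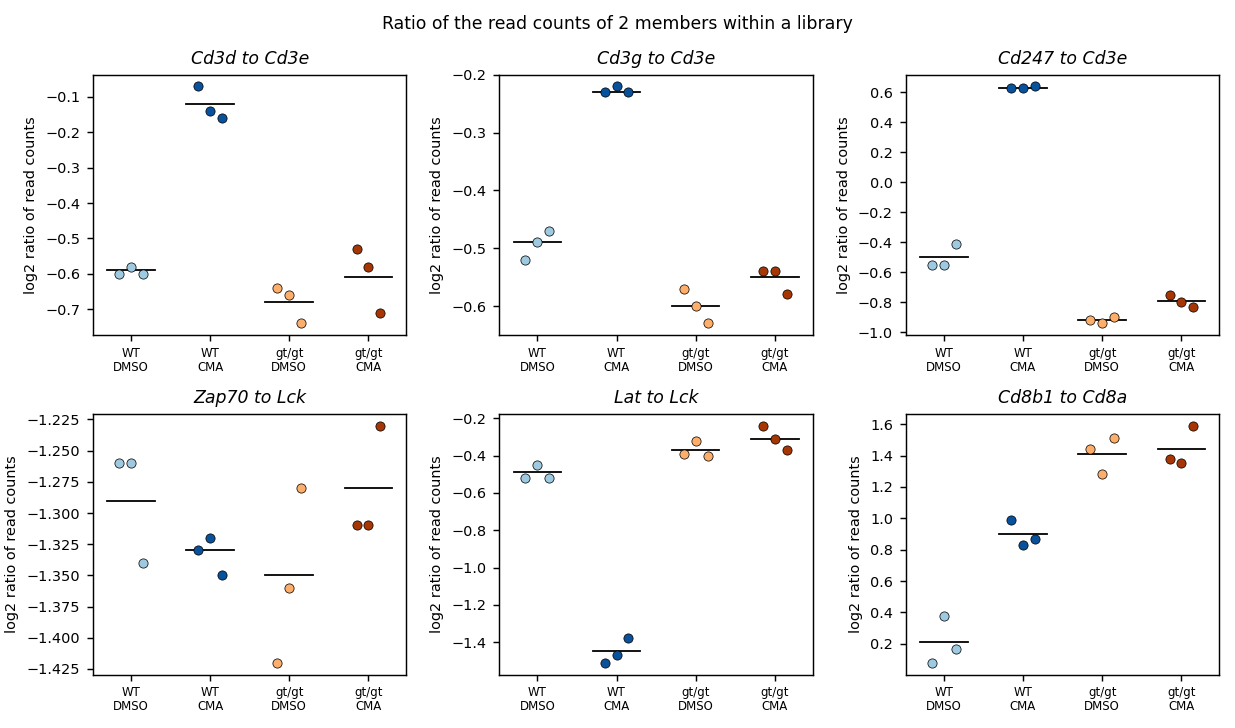
Log2 ratio of the read counts of 2 members in each library (points) with the mean of 3 libraries (line), by genotype and treatment, with a separate axis range for each ratio. Cd247 to Cd3e rose from a mean of -0.50 to 0.63 and Lat to Lck fell from -0.49 to -1.45 with CMA in WT cells, while Zap70 to Lck overlapped between the treatments.

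The coreceptor genes did not move together. CD4 binds MHC class II and marks helper T cells, whereas the CD8 alpha and beta chains bind MHC class I and mark cytotoxic T cells. Cd4, at chr6:124864692-124888221 on the minus strand, had 434, 437 and 435 CPM in WT DMSO libraries and 483, 498 and 514 CPM in WT CMA libraries. All CMA libraries were above all DMSO libraries, by 0.19 ± 0.0374 on the log2 scale (edgeR, adjusted p = 2.03e-04). The STINGgt/gt libraries had 529, 543 and 548 CPM of Cd4 with DMSO and 521, 526 and 523 CPM with CMA. These groups did not overlap and the difference of -0.05 was not called (edgeR, adjusted p = 0.657). The CMA effect on Cd4 differed between genotypes by 0.24 (edgeR, adjusted p = 9.48e-04). Of the 2 other markers of the CD4 lineage, Zbtb7b was called higher with CMA in WT (110 to 121 CPM with DMSO and 150 to 156 with CMA) and Cd40lg, which activated cells also induce, was called lower (43.4 to 49.6 and 18.8 to 21.4 CPM). Their part in the Cd4 result was not tested.

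The CD8 chain genes lie within 56.3 kb on chromosome 6, Cd8b1 at chr6:71322836-71337477 and Cd8a at chr6:71373427-71379171, both on the plus strand. Although the cells are labelled CD4+, both were detected in every library. Cd8a had 23.5, 22.8 and 22.1 CPM in WT DMSO libraries and 12.2, 13.8 and 12.6 CPM in WT CMA libraries. The fall of 0.83 was clear of the spread, with no overlap (log2 difference -0.83 ± 0.0669, edgeR, adjusted p = 1.15e-08). STINGgt/gt libraries had 5.49, 5.8 and 5.01 CPM with DMSO and 5.67, 5.52 and 5.25 CPM with CMA, and these overlapped. The effect on Cd8a differed between genotypes by -0.84 (edgeR, adjusted p = 5.19e-06).

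Cd8b1 had 24.9, 29.6 and 24.9 CPM in WT DMSO and 24.2, 24.6 and 23 CPM in WT CMA libraries. The groups lay just apart, and the difference of -0.14 ± 0.0692 was not called (edgeR, adjusted p = 0.0768). It passed the threshold in 3 of 21 alternatives, 0.0487 with library-size scaling, 0.0465 with a replicate block and 0.0307 without WT DMSO replicate 3. Without WT DMSO replicate 2 the log2 difference of Cd8b1 was -0.06 (edgeR, adjusted p = 0.375). STINGgt/gt libraries had 14.9, 14.1 and 14.3 CPM with DMSO and 14.7, 14 and 15.8 CPM with CMA, and the groups overlapped. Within WT libraries the ratio of Cd8b1 to Cd8a counts was 1.06 to 1.3 with DMSO and 1.78 to 1.98 with CMA. In STINGgt/gt libraries it was 2.43 to 2.84 and 2.54 to 3.01. Beside the fall of Cd8a, 5 of 6 tested CD8 and NK cell markers were called lower with CMA in WT, among them Prf1 (76.8 to 81.2 CPM with DMSO and 26.4 to 31.2 CPM with CMA) and Nkg7 (63.2 to 75.4 and 18.5 to 22.1 CPM). Eomes was the exception, at 17 to 19.7 CPM with DMSO and 24.5 to 29.2 CPM with CMA.

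Of the kinase genes, Lck at chr4:129548344-129573641 on the minus strand had 505, 547 and 496 CPM in WT DMSO libraries and 457, 459 and 459 CPM in WT CMA libraries. All 3 CMA libraries were lower, by a small margin, at a log2 difference of -0.17 ± 0.0423 (edgeR, adjusted p = 0.00188). In STINGgt/gt libraries Lck had 498, 483 and 489 CPM with DMSO and 496, 474 and 474 CPM with CMA, which overlapped. The CMA effect on Lck differed between genotypes by -0.15 (edgeR, adjusted p = 0.0466), a call that was lost in 17 of 20 alternatives, with adjusted p up to 0.173.

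Zap70, at chr1:36761861-36782816 on the plus strand, had 210, 229 and 196 CPM in WT DMSO libraries and 181, 185 and 180 CPM in WT CMA libraries. The groups did not overlap and differed by -0.22 ± 0.053 on the log2 scale (edgeR, adjusted p = 0.00163). STINGgt/gt libraries had 186, 189 and 201 CPM with DMSO and 200, 191 and 202 CPM with CMA. Those groups overlapped, and the CMA effect differed between genotypes by -0.26 (edgeR, adjusted p = 0.00673). Zap70 had 0.394 to 0.419 reads per read of Lck in WT DMSO and 0.393 to 0.402 in WT CMA libraries, with overlap (log2 difference -0.05 ± 0.0294, SE).

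Lat had the largest change of the 10 members. It lies at chr7:126363832-126369543 on the minus strand. The WT libraries had 353, 402 and 346 CPM with DMSO and 161, 166 and 176 CPM with CMA. Every CMA library lay far below every DMSO library, and the log2 difference was -1.13 ± 0.0622 (edgeR, adjusted p = 8.41e-11). Among all genes tested in WT this was the 6.37th percentile. STINGgt/gt libraries had 380, 388 and 370 CPM with DMSO and 421, 382 and 366 CPM with CMA, and they overlapped. The CMA effect differed between genotypes by -1.17 (edgeR, adjusted p = 8.67e-09). Against Lck in the same library, Lat fell from 0.697 to 0.734 reads per read in WT DMSO libraries to 0.351 to 0.384 in WT CMA libraries, and in STINGgt/gt libraries it was 0.758 to 0.803 with DMSO and 0.771 to 0.848 with CMA. The log2 difference of this ratio was -0.96 in WT and 0.06 in STINGgt/gt.

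**Figure D4:**
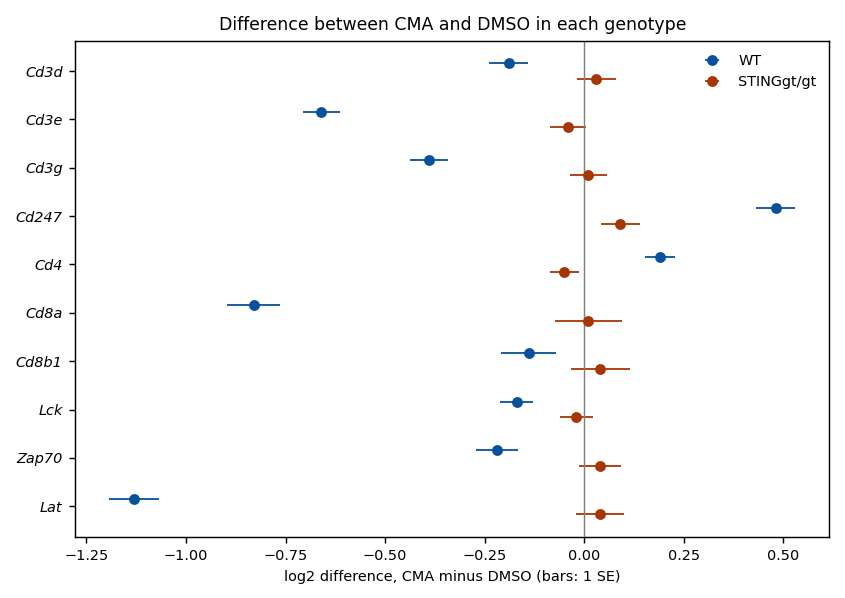
Log2 difference between CMA and DMSO for the 10 members in WT and in STINGgt/gt T cells, as points with bars of 1 SE from the edgeR model. The WT values run from -1.13 for Lat to 0.48 for Cd247, and the STINGgt/gt values from -0.05 to 0.09.

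For 9 of the 10 members, Cd8b1 being the exception, the test of the difference between both CMA effects was passed, against 58.8% of all genes. The WT effect was the lower one in 7 of the 9 (31.6% of all genes) and the higher one in 2 (27.2%). The fits leaving out 1 library kept the WT differences of Lat between -1.17 and -1.07, of Cd8a between -0.88 and -0.79, of Cd3e between -0.69 and -0.62, and of Cd247 between 0.44 and 0.52. WT DMSO replicate 2 had the highest level of its group for Cd3d, Cd3e, Cd3g, Lck, Zap70 and Lat. The WT difference was then smallest in size at -0.15 for Cd3d, -0.13 for Lck and -0.16 for Zap70 among the fits leaving out 1 library, and these 3 remained called in all 21 alternatives.

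Without CMA the genotypes already differed in 6 of the 10 members, against 42.7% of all genes. The 4 higher in WT compare with 22.9% of all genes and the 2 lower with 19.8%, and 5 members had groups that did not overlap, against 47.9% of all genes. The WT DMSO libraries here are the same as in the CMA comparison. Cd8a showed the widest gap, 22.1 to 23.5 CPM in WT and 5.01 to 5.8 CPM in STINGgt/gt libraries, a 4.20-fold higher mean in WT (log2 difference 2.06 ± 0.0738, edgeR, adjusted p = 3.49e-12). Cd8b1 was 1.83-fold higher in WT (log2 difference 0.87, edgeR, adjusted p = 6.58e-08). In counts of the same library, Cd8a had 0.0509 to 0.0541 reads per read of Cd4 in WT DMSO and 0.00914 to 0.0107 in STINGgt/gt DMSO libraries. Beside these, the CD8 and NK cell marker list summed to 166 to 183 CPM in WT DMSO and 79.5 to 90.2 CPM in STINGgt/gt DMSO libraries. Of its 6 tested genes 4 were called higher and 1 lower in WT, against 22.9% and 19.8% of all genes. The lower one was Eomes, at 17 to 19.7 CPM in WT DMSO and 28 to 37 CPM in STINGgt/gt DMSO libraries. The part of this list in the difference was not tested.

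Cd4 was lower in WT than in STINGgt/gt with DMSO by 0.31 on the log2 scale (log2 difference -0.31, edgeR, adjusted p = 5.20e-06). Cd247 was higher in WT by 0.27 (edgeR, adjusted p = 2.96e-04). Cd3e was lower in WT (log2 difference -0.14, edgeR, adjusted p = 0.0176, and 0.0636 without WT DMSO replicate 1). Zap70 was called higher in WT by 0.14 although the groups overlapped (edgeR, adjusted p = 0.0389), and this call was lost in 16 of 19 alternatives. Cd3d, Cd3g, Lck and Lat were not called, with log2 differences of -0.06, -0.04, 0.08 and -0.05.

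With CMA, 7 members differed between the genotypes, 3 higher and 4 lower in WT, against 73.5% of all genes (37.0% higher and 36.5% lower). All 10 had groups that did not overlap, as did 78.9% of all genes. Lat was lower in WT by the widest margin (log2 difference -1.22, edgeR, adjusted p = 2.30e-11), followed by Cd3e at -0.76, Cd3g at -0.43 and Cd3d at -0.27. Cd8a, Cd8b1 and Cd247 were higher in WT by 1.23, 0.69 and 0.66. Cd4 at -0.07, Lck at -0.07 and Zap70 at -0.12 were not called, and each of these 3 passed the threshold under library-size scaling or with only the 2 groups in the fit.

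Levels of different genes were compared per kb of annotated exon. In WT DMSO libraries the order was Lck with 176 CPM per kb, Lat with 133, Cd4 with 108, Cd3d with 92.4, Zap70 with 70.8, Cd3e with 61.9, Cd3g with 54.8, Cd247 with 33.4, Cd8b1 with 17.8 and Cd8a with 6.27. Zap70 and Cd3e were the only neighbours whose libraries overlapped. With CMA in WT, Lat moved from the second to the fifth place at 60.6 CPM per kb, with libraries that overlapped those of Zap70 at 60.9, and Cd247 moved from the eighth to the sixth place at 46.5. Both STINGgt/gt groups had Lck, Lat and Cd4 in the first 3 places, at 167, 137 and 134 CPM per kb with DMSO and 164, 141 and 130 with CMA. The order depends on the length used. Per kb of the principal transcript, chosen as a length after the data were seen, Lat came first in WT DMSO libraries with 297 CPM per kb, ahead of Lck with 236, Cd3g with 175, Cd3e with 172 and Cd4 with 140, whereas Cd8b1 and Cd8a stayed last with 17.9 and 7.29.

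As a description over the 12 libraries, which share the 4 group levels, Lat correlated with Cd3e at r = 0.99 and with Cd3g at r = 0.98. Cd247 ran the other way, at r = -0.92 with Lat and r = -0.95 with Cd3e. Cd8a and Cd8b1 correlated at r = 0.96, and Cd8a and Cd4 at r = -0.93. Outside the members, the 5 genes whose profile was most like the mean profile of Cd3d, Cd3e and Cd3g, among 8129 genes with a mean count of at least 500, were Tk1 (r = 0.993), Naa10 (r = 0.989), Mrps35 (r = 0.988), Snhg5 (r = 0.986) and Nhp2 (r = 0.986).

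The promoters of the 3 members that moved furthest in WT with opposite signs among the signalling genes, Lat and Cd3e down and Cd247 up, are printed to show their sequence beside these values. RefSeq promoters (GRCm38.p6) were matched for 8 of the 10 members, with 2 start sites for Lck and 3 for Zap70. Cd4 and Cd8b1 are named only. Each line gives the 250 bases before the start site, 5′ to 3′ in the direction of transcription, with the letters GGAA of the ETS core, or TTCC on the other strand, in capitals.
Lat, chr7:126369569-126369818, minus strand: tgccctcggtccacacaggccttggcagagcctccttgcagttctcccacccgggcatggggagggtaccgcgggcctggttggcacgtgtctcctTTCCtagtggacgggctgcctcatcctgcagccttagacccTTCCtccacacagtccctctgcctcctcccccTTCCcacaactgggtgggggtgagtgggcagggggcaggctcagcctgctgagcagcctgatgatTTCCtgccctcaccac
Cd3e, chr9:45009612-45009861, minus strand: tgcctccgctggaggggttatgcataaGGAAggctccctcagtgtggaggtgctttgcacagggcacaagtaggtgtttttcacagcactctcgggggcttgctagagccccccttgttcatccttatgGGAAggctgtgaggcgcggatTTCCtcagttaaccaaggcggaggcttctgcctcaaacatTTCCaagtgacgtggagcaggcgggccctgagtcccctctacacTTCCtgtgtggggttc
Cd247, chr1:165788431-165788680, plus strand: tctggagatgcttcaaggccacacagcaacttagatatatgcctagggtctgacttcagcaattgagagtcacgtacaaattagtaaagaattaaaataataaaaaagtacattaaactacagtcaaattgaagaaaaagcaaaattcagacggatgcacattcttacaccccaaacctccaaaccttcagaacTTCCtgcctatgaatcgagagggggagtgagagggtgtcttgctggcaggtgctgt
Lat held 4 such matches, Cd3e 5 and Cd247 1. Of the 11 windows of the 8 members 10 held at least 1, as did 93.4% of the 32851 promoter windows in the table.

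Other motifs were searched on both strands in the same windows. The E-box CANNTG was present in 10 of the 11 windows and in 66.2% of all windows, the RUNX core TGTGGT in 2 of 11 (1 window each of Lck and Zap70) and 14% of all, and the GC box GGGCGG in 2 of 11 (Cd3g and 1 window of Lck) and 32.7% of all. The Zap70 window with the RUNX letters precedes a start site whose transcript was not found among the GENCODE transcripts searched. The STAT element TTCNNNGAA matched in the Cd3d window only, where it shares bases with an ETS core match, and in 7.02% of all windows. None of the 11 windows matched the TATA box TATAAA (12.4% of all windows). These are matches of letters in a window and are not measured binding sites.

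Around the members, 44 further genes of the pathway were read by class, and all 44 were tested. In WT cells CMA raised 11 and lowered 23 of them, against 33.0% and 37.4% of all genes, with a median log2 difference of -0.18 (-0.04 over all genes). In STINGgt/gt cells 1 was called higher and 0 lower by edgeR (0.398% and 0.920% of all genes), with 8 at an unadjusted p under 0.05, and DESeq2 called 2 higher and 0 lower and limma called 0 of the 41 genes it covered. The gene called by edgeR was Prkcq, which encodes protein kinase C theta, with 129, 129 and 124 CPM with DMSO and 150, 148 and 140 CPM with CMA (log2 difference 0.20, edgeR, adjusted p = 0.0482). The call was lost in 9 of the 12 fits leaving out 1 library, each without a WT CMA, STINGgt/gt DMSO or STINGgt/gt CMA library, and with a block by library name. In WT, Prkcq had 121, 130 and 132 CPM with DMSO and 150, 145 and 156 CPM with CMA (log2 difference 0.23, edgeR, adjusted p = 2.78e-04). The CMA effects of the genotypes differed by 0.04, which was not called (edgeR, adjusted p = 0.642).

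By edgeR, none of the 3 constant genes of the chains that bind antigen was called in WT, and their differences from the CD3 genes were not tested. Trac had 212, 231 and 220 CPM in WT DMSO and 204, 212 and 212 CPM in WT CMA libraries. Trbc1 had 97.5, 115 and 92.9 CPM and then 110, 116 and 111 CPM, and Trbc2 had 234, 264 and 208 CPM and then 205, 227 and 218 CPM. All 3 pairs of groups overlapped. Of them 1 (Trbc1) was at an unadjusted p under 0.05, and DESeq2 called it higher. The 2 beta constant genes are near-identical, and reads that aligned to more than 1 place were not counted, so their levels are uncertain.

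All 5 further kinases were called in WT, as were 70.4% of all genes. Of the 5, 4 fell and 1 rose, against 37.4% lower and 33.0% higher among all genes. Tec, a kinase that acts on phospholipase C, fell from 28, 28.3 and 30.1 CPM to 9.6, 9.87 and 9.86 CPM, with no overlap (log2 difference -1.56, edgeR, adjusted p = 2.46e-12). Its relative Txk fell by 0.61, and Fyn, a Src-family kinase like Lck, fell by 0.50 on the log2 scale. Csk, which holds Lck inactive, had 288, 303 and 293 CPM and then 258, 265 and 259 CPM (log2 difference -0.18, edgeR, adjusted p = 8.37e-04).

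Of 10 further adaptors 9 fell and 1 rose in WT, against 37.4% lower and 33.0% higher among all genes. Lcp2, which encodes the Lat partner SLP-76, had 519, 502 and 537 CPM with DMSO and 322, 317 and 325 CPM with CMA, and 660, 662 and 617 CPM against 681, 669 and 631 CPM in STINGgt/gt cells. The WT groups were far apart (log2 difference -0.69, edgeR, adjusted p = 6.56e-10) and the STINGgt/gt groups overlapped. Skap1, an adaptor that links the receptor to integrins, fell from 110, 125 and 114 CPM to 47.9, 47.2 and 48.4 CPM, and Tespa1, an adaptor of receptor signalling in thymocytes, from 34.2, 35.7 and 29.6 CPM to 11.3, 10.1 and 11 CPM. Their log2 differences were -1.28 and -1.62. Trat1, a transmembrane adaptor that associates with the receptor, was low, at 7.21 to 8.85 CPM with DMSO and 3.46 to 4.63 CPM with CMA in WT (log2 difference -0.97, edgeR, adjusted p = 3.18e-06).

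Among 8 downstream enzymes and scaffolds 3 rose and 3 fell in WT (33.0% and 37.4% of all genes). Malt1, a protease that acts upstream of NF-κB, had 602, 551 and 618 CPM with DMSO and 286, 279 and 281 CPM with CMA, groups that did not overlap (log2 difference -1.07, edgeR, adjusted p = 7.32e-12). Plcg1, the phospholipase that docks on Lat, fell by 0.60, and Vav1, an exchange factor, fell by 0.35 on the log2 scale.

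Of 18 phosphatases and other restraining genes 6 rose and 7 fell in WT, close to the shares of all genes (33.0% and 37.4%). Dok1, an inhibitory adaptor, went from 31.2, 36.6 and 30 CPM to 123, 125 and 114 CPM (log2 difference 1.89, edgeR, adjusted p = 1.70e-13), whereas its relative Dok2 fell by 0.63. Ubash3a, which restrains receptor signalling, went from 43.8, 45.5 and 47.3 CPM to 16.2, 17.7 and 18 CPM (log2 difference -1.40, edgeR, adjusted p = 1.31e-12). Pag1, which recruits Csk to the membrane, fell by 0.62. Across the 44 genes the CMA effect differed between genotypes for 31, with 9 higher and 22 lower in WT, against 58.8% of all genes, 27.2% higher and 31.6% lower.

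**Figure D5:**
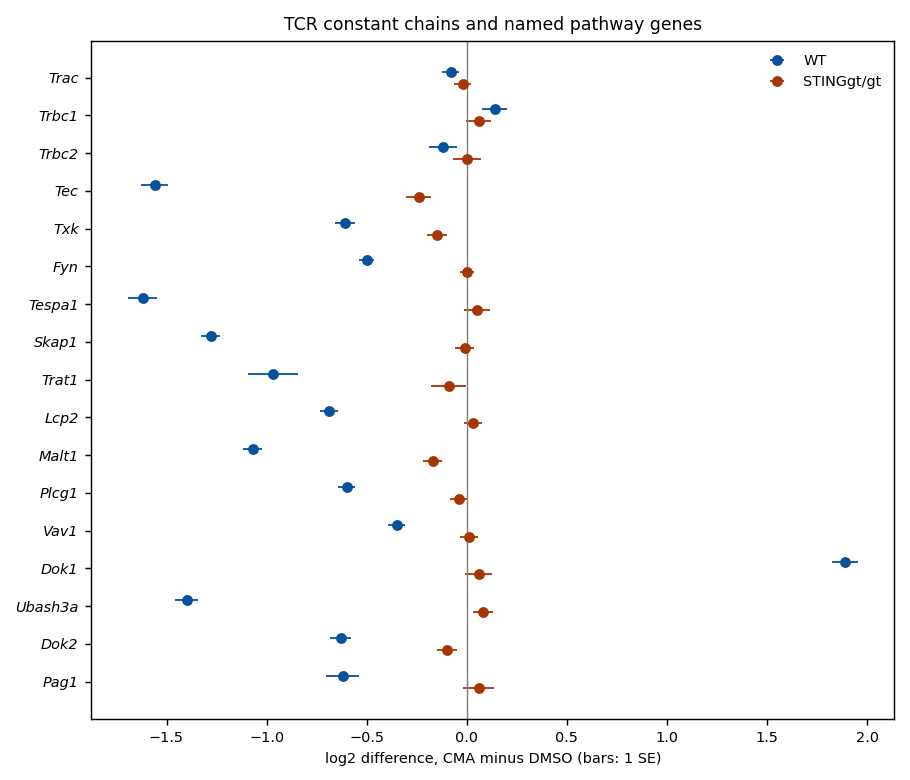
Log2 difference between CMA and DMSO for the 3 receptor constant chains and 14 pathway genes in WT and in STINGgt/gt T cells, as points with bars of 1 SE from the edgeR model. Dok1 at 1.89 lies far to the right and Tespa1 at -1.62 and Tec at -1.56 far to the left in WT, while the constant chains lie between -0.12 and 0.14.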

How the data were processed

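RNA of T cells gave 12 libraries, which were made from 1000 ng of total RNA with a stranded mRNA kit. The submitters' processing notes name cutadapt 1.3, STAR 2.4.0f1, HTSeq 0.6.1, RSEM 1.2.16 and GRCm38. The authors deposited raw read counts per Ensembl gene, without normalisation, and a log2 table of 11921 genes. That deposited log2 table equals log2(count + 0.5) plus a TMM factor per library. Tally lines (27.8% to 30.3% not unique, 4.86% to 7.16% outside genes, both differing between the WT groups, and 0.594% to 0.635% ambiguous) were left out.

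Counts were tested with edgeR 4.0.16 (R 4.3.3, quasi-likelihood, TMM, filterByExpr, 13811 genes, 4 groups in a single model, no block, Benjamini-Hochberg, threshold 0.05). DESeq2 1.42.0, limma 3.58.1 on the log2 table, other scalings, filters, samples, blocks and leaving out each library were alternatives. Models were run on simulated counts in which a small share of genes changed, in the WT CMA group only. In the real WT comparison 70.4% of genes were called, so the tests were not checked under so wide a change. Members and lists were chosen with earlier results of these data known. Named genes were all members, up to 4 called genes per pathway class with a mean count of at least 50, non-overlapping WT groups and the largest change, and the 5 genes nearest to the CD3 profile. Of these, 2 pathway genes are counted but not reported by name here. Csk, Prkcq, the constant chains, Pou2f1 and Tmem173 were named outside this rule.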

Additional observations from a re-analysis of the deposited data

Results flagged for a closer look

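For 9 of the 10 genes CMA acted differently in the 2 genotypes by the test of the difference itself (edgeR, adjusted p from 8.67e-09 to 0.0466). The WT effect minus the STINGgt/gt effect on the log2 scale was -1.17 for Lat, -0.84 for Cd8a, -0.62 for Cd3e, -0.40 for Cd3g, -0.26 for Zap70, -0.22 for Cd3d and -0.15 for Lck. The call for Lck (edgeR, adjusted p = 0.0466) was lost in 17 of 20 alternatives and that for Cd3d with limma (adjusted p = 0.061). It was 0.39 for Cd247 and 0.24 for Cd4. All 3 WT libraries with CMA lay on the stated side of all 3 with DMSO for each of the 9. Over all genes, 58.8% differed in the same test. The Cd247 value carries the overlap of its exons with Pou2f1.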

How the results depend on the processing

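Each comparison had 19 to 21 alternative settings, which shared the same libraries and together gave 1000 values of the member differences. Of these values 944 kept direction and side of the threshold, and no member called for CMA in WT lost its call. The difference for Lck (17 of 20 refits) and the genotype difference of Zap70 with DMSO (16 of 19) were lost most often. In STINGgt/gt, 55 genes were higher and 127 lower. The higher count was 122 with DESeq2, 31 with limma, 176 unfiltered, 85 when each library needed at least 10 counts and 268 with only the 2 groups. The lower count was 205 with DESeq2, 257 unfiltered and 388 with only the 2 groups. Leaving out 1 library gave 14 to 180 higher and 41 to 289 lower, the extremes being without STINGgt/gt DMSO replicate 2 and WT DMSO replicate 2, and STINGgt/gt CMA replicate 3 and WT DMSO replicate 3. Pathway genes higher (1) became 2 with DESeq2, unfiltered or with only the 2 groups, and 0 with limma, and pathway genes lower (0) became 1 unfiltered and 3 with only the 2 groups. Leaving out 1 library gave 0 to 2 and 0 to 3. Members lower in WT with CMA than in STINGgt/gt numbered 4, and 7 with library-size scaling or only the 2 groups. Those lower with DMSO were 1 to 2 with a library left out. The causes were not tested.

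In deviations from the group means, same-numbered DMSO and CMA libraries correlated at 0.00195, 0.104 and 0.132 (WT) and at 0.0634, 0.0597 and 0.0585 (STINGgt/gt). Pairs with different numbers correlated at -0.15 to 0.056 (WT) and at -0.061 to 0.00346 (STINGgt/gt). Within each genotype they lay below every same-numbered pair except the WT pair at 0.00195. Not every pair passed 0.1 and no label says what a number marks, so the fit without a block was kept, although 5 of the 6 pairs also have library names that begin alike. A replicate block gave 130 higher and 233 lower genes and 2 higher and 3 lower pathway genes in STINGgt/gt, and 8 in place of 7 members lower in WT. A block by library name gave 12 and 31 genes and 0 higher pathway genes, and reversed Cd3g in STINGgt/gt (-0.002). No paired analysis was possible between genotypes because their numbers are not shared animals. Leaving out 1 library turned only differences near 0 in STINGgt/gt: Cd3d (-0.003 to 0.07), Cd3g (-0.003 to 0.03), Cd8a (-0.04 to 0.06), Cd8b1 (-0.01 to 0.08), Lat (-0.02 to 0.08), and the ratios Cd8a to Cd4 (-0.01 to 0.10) and Cd8b1 to Cd8a (-0.05 to 0.08).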

Other observations

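Pathway genes also differed between the genotypes, and the WT libraries in these values are those of the CMA comparison. With DMSO, 15 of the 44 were higher and 11 lower in WT (22.9% and 19.8% of all genes), and with CMA 12 were higher and 18 lower (37.0% and 36.5%). Trat1 had 8.85, 7.21 and 7.63 CPM in WT DMSO libraries and 25.3, 27.3 and 21.5 CPM in STINGgt/gt DMSO libraries, groups that did not overlap (log2 difference -1.65, edgeR, adjusted p = 1.54e-09). Tec was higher in WT with DMSO by 0.81 and lower with CMA (log2 difference -0.51, edgeR, adjusted p = 3.48e-06), since its WT level fell with CMA from a mean of 28.8 to 9.78 CPM while the STINGgt/gt means were 16.5 and 13.9 CPM. Malt1 had the same order, at 0.40 with DMSO and -0.50 with CMA. Lcp2 was lower in WT under both treatments, at -0.32 and -1.04 on the log2 scale.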
